A study of Homo sapiens with 26 samples.

Results

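The 7 subunits of respiratory complex I that the mitochondrial genome encodes, MT-ND1, MT-ND2, MT-ND3, MT-ND4L, MT-ND4, MT-ND5 and MT-ND6, were followed through every library as the transcripts that carry those gene names, 7 of the 12325 transcripts counted. Cultures of Huh7, a human liver cancer line of hepatocyte origin, had been given PF-06446846, a small molecule that stalls the cytosolic ribosome on selected nascent chains, or 0.5% DMSO as vehicle. In the first study, 1.5 μM, 0.3 μM or vehicle was applied for 10 or 60 min, and 3 biological replicates of each of the 6 groups were profiled by ribo-seq, the sequencing of mRNA fragments that ribosomes protect from nuclease (footprints). In the second study, 1.5 μM or vehicle was applied for 60 min, and both ribo-seq and poly(A)-selected mRNA-seq were run on the same 2 cultures of each treatment, numbered as replicates 4 and 5. No gene was altered in any group, and all groups are the same single line.

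Complex I passes electrons from NADH to ubiquinone at the inner mitochondrial membrane and pumps protons as it does so. Its mitochondrially encoded subunits form the core of the membrane arm, and its other subunits are products of nuclear genes translated in the cytosol. The mitochondrial mRNAs are translated inside the organelle by mitochondrial ribosomes, which read a variant genetic code in which TGA means tryptophan and ATA methionine. The mRNAs have almost no untranslated leader, several stop codons are completed only by polyadenylation, and MT-ND4L and MT-ND4 lie on a single RNA.

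The ribosome positions that held the most footprints are shown first, since the results on codons turn on their sequence. Each line gives the codon of a member with the highest mean share of its footprints over the 18 libraries of the first study, within the 30 bases that a footprint assigned to that codon covers, 5′ to 3′ on the coding strand of hg38 (GRCh38), with the codon placed in the ribosomal P-site in capitals.
MT-ND1 codon 150: ctagccatcattCTActatcaacattacta
MT-ND2 codon 335: gcccttaccacgCTActcctacctatctcc
MT-ND3 codon 100: atcatcctagccCTAagtctggcctatgag
MT-ND4L codon 30: ctcatatcctccCTActatgcctagaagga
MT-ND4 codon 177: tcactaaacattCTActactcactctcact
MT-ND5 codon 5: ataaccatgcacACTactataaccacccta
MT-ND6 codon 158: gtagttactggtTGAacattgtttgttggt
The windows lie at chrM:3742-3771, chrM:5460-5489, chrM:10344-10373, chrM:10545-10574, chrM:11276-11305 and chrM:12337-12366 on the plus strand and at chrM:14185-14214 on the minus strand, all within coding exons. In 5 of the 7 the capitals read CTA, a leucine codon. In MT-ND6 they read TGA, tryptophan in mitochondria, and in MT-ND5 they mark codon 5, the first codon that could hold reads.

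The ribo-seq libraries of the first study held 6414227 to 22224137 reads on coding sequences, those of the second 8888459 to 13736874, and the mRNA-seq libraries 15227654 to 22036358. Levels are given as reads per 1000000 coding-sequence reads of the library (RPM), and per kilobase of coding sequence where genes are compared. Hepatocyte secretory genes were high in every library, with 6 of 7 listed markers found by name (AFP from 8878 to 14910.2 RPM in ribo-seq, TTR from 167 to 265), while the endothelial marker PECAM1 ran from 11.5 to 26.7 RPM and the epithelial marker EPCAM from 81.2 to 152. The other listed markers were not matched by name. Because the reference transcripts of the members have no leader or trailer, no read could be placed on codons 1 to 4 or on the last 3 codons.

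Mitochondrial footprints were scarce beside mitochondrial mRNA. The libraries are bulk, so where a level within a single assay is low, fewer mitochondria or cells with these RNAs and less RNA in each cannot be told apart. The 7 members together took 0.0155% to 0.0903% of coding-sequence reads in the 22 ribo-seq libraries (median 0.0375%) and 1.43% to 1.99% in the 4 mRNA-seq libraries. All 13 mitochondrially encoded genes took 0.0575% to 0.469% and 6.37% to 7.99%. In contrast, the 35 nuclear complex I subunits found by name summed to 4384 to 4957 RPM in ribo-seq and 4609 to 4923 RPM in mRNA-seq. All 7 members passed the filter on low counts in every comparison. The protocol lysed whole cells and kept fragments of 26 to 34 nt, and the part of lysis, nuclease and size selection in the yield of mitochondrial footprints was not tested.

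**Figure D1:**
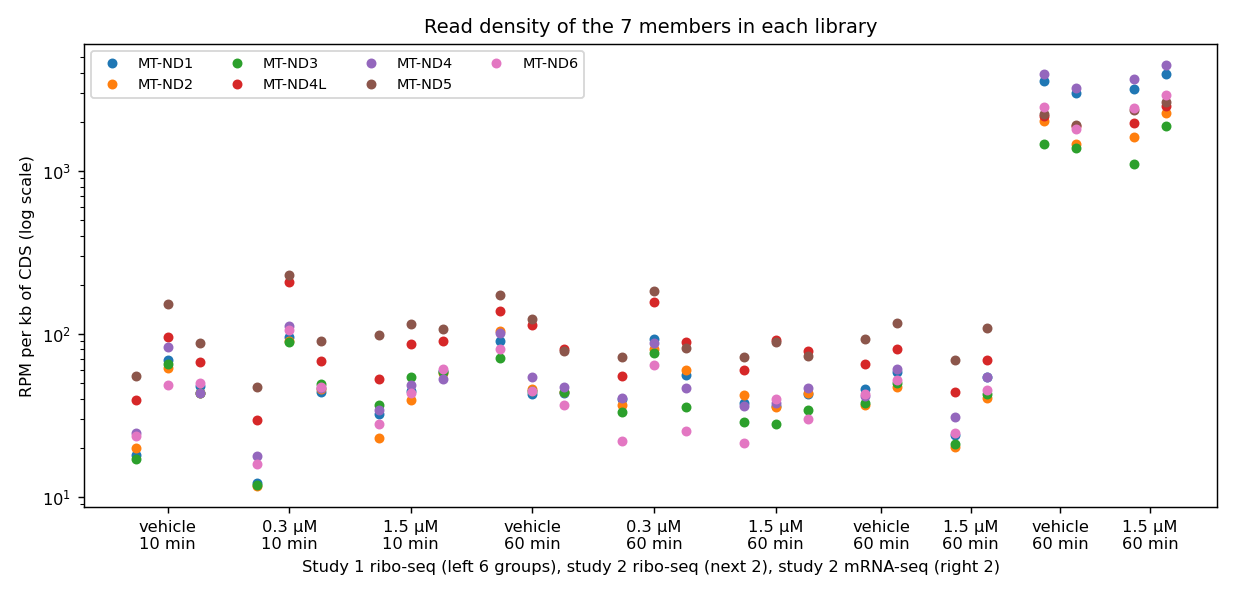
RPM per kilobase of coding sequence (log axis) of each member in every library, grouped by study, assay, treatment and time, with 1 column of points for each library. The mRNA-seq points start at 1103 RPM per kb, the ribo-seq points end at 229.8, and within ribo-seq the 7 members rise and fall together from library to library.

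MT-ND1 lines the ubiquinone access path where the membrane arm meets the peripheral arm (ENST00000361390, chrM:3307-4262, plus strand, 956 nt, 318 codons counted). Its footprints stood at 17.2, 66.1 and 45.7 RPM in the 3 vehicle libraries after 10 min, 11.6, 90.9 and 41.8 RPM with 0.3 μM and 30.6, 42.3 and 56.3 RPM with 1.5 μM. After 60 min they stood at 86.4, 40.9 and 41.2 RPM with vehicle, 37.8, 88.5 and 53.1 RPM with 0.3 μM and 35.6, 34.2 and 40.9 RPM with 1.5 μM. The 3 groups overlapped after 10 min, and after 60 min every library with 1.5 μM lay below every vehicle library. The gap was narrow, from 40.89 RPM in 1.5 μM replicate 3 to 40.91 RPM in vehicle replicate 2. In the second study the footprints were 43.7 and 55.2 RPM with vehicle and 22.8 and 51.7 RPM with 1.5 μM, with mRNA of 3369.5 and 2852 RPM and 3046 and 3738 RPM in the same order. Footprints per mRNA, the ratio of both RPM values within a culture, came to 1.30% and 1.94% with vehicle and 0.749% and 1.38% with 1.5 μM. The 3 codons with most footprints were codon 150 (3.45% ± 1.43 of its footprints, SD, n = 18), codon 7 (3.44% ± 1.30 of its footprints, SD, n = 18) and codon 79 (3.18% ± 1.87 of its footprints, SD, n = 18), the first pair CTA and the last CTC, both leucine.

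MT-ND2 is one of the antiporter-like subunits that form the proton channels of the membrane arm (ENST00000361453, chrM:4470-5511, plus strand, 1042 nt, 347 codons counted). Ribo-seq gave 20.7, 64.4 and 45.1 RPM in the 3 vehicle libraries after 10 min, 12.1, 93.4 and 47.5 RPM with 0.3 μM and 23.9, 40.9 and 60.0 RPM with 1.5 μM. The 60 min libraries had 108, 47.7 and 45.7 RPM with vehicle, 38.2, 83.4 and 62.0 RPM with 0.3 μM and 43.7, 36.9 and 45.2 RPM with 1.5 μM. After 10 min the groups overlapped, and after 60 min every library with 1.5 μM lay below every vehicle library. Footprints in the second study were 37.9 and 49.1 RPM with vehicle and 21.1 and 42.0 RPM with 1.5 μM, with mRNA of 2106 and 1518 RPM and 1669 and 2359 RPM in the same order. Per mRNA this was 1.80% and 3.23% with vehicle and 1.26% and 1.78% with 1.5 μM. The codons with most footprints were codon 335 (6.06% ± 3.05 of its footprints, SD, n = 18) and codon 336 (4.04% ± 2.27), near the end of the coding sequence, and codon 228 (4.46% ± 1.92 of its footprints, SD, n = 18). Codon 335 held the most footprints in 12 of 22 ribo-seq libraries and only 0.501% to 0.556% of the mRNA reads.

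MT-ND4 is a further antiporter-like subunit (ENST00000361381, chrM:10760-12137, plus strand, 1378 nt, 459 codons counted). Footprints of MT-ND4 came to 34.1, 113 and 59.5 RPM in the 3 vehicle libraries after 10 min, 24.6, 154 and 63.5 RPM with 0.3 μM and 46.9, 66.4 and 72.4 RPM with 1.5 μM. At 60 min the levels were 139, 74.3 and 65.2 RPM with vehicle, 55.3, 121 and 63.7 RPM with 0.3 μM and 49.4, 51.5 and 63.9 RPM with 1.5 μM. The 10 min groups overlapped, and after 60 min every library with 1.5 μM lay below every vehicle library. The cultures of the second study had footprints of 57.1 and 83.5 RPM with vehicle and 42.5 and 74.7 RPM with 1.5 μM, with mRNA of 5424 and 4462 RPM and 5046 and 6132 RPM in the same order. The ratio of footprints to mRNA was 1.05% and 1.87% with vehicle and 0.842% and 1.22% with 1.5 μM. The leading codons were codon 177 (2.67% ± 1.02 of its footprints, SD, n = 18), codon 178 (2.66% ± 1.15 of its footprints, SD, n = 18) and codon 164 (2.59% ± 1.09 of its footprints, SD, n = 18), all CTA, and the first of these held 0.147% to 0.193% of the mRNA reads.

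MT-ND5 is the antiporter-like subunit at the far end of the membrane arm (ENST00000361567, chrM:12337-14148, plus strand, 1812 nt, 604 codons counted). Its footprints stood at 99.2, 276 and 159.8 RPM in the 3 vehicle libraries after 10 min, 85.6, 416 and 163 RPM with 0.3 μM and 179, 209 and 194 RPM with 1.5 μM. After 60 min they stood at 312, 221 and 141 RPM with vehicle, 130.5, 329 and 148 RPM with 0.3 μM and 131, 161 and 132 RPM with 1.5 μM. It had the most footprints of the members in every ribo-seq library. The 10 min groups overlapped, and after 60 min so did the groups of 1.5 μM and vehicle. In the second study the footprints were 169 and 212 RPM with vehicle and 124 and 198 RPM with 1.5 μM, with mRNA of 4039 and 3441 RPM and 4279.8 and 4793 RPM in the same order. Its footprints per mRNA were 4.18% and 6.15% with vehicle and 2.91% and 4.13% with 1.5 μM. Codon 5, which takes fragments that begin at the first bases of the reference transcript, varied more than any other listed position. Its share of MT-ND5 footprints was 20.7, 9.26 and 0.435% with 1.5 μM after 10 min, 10.4, 0.156 and 0.552% with 0.3 μM and 4.39, 0.580 and 1.55% with vehicle. After 60 min it was 2.64, 0.801 and 0.608% with 1.5 μM, 4.14, 0.408 and 0.209% with 0.3 μM and 0.40, 0.524 and 1.12% with vehicle. In the second study it was 8.38 and 4.07% with 1.5 μM and 4.22 and 2.55% with vehicle, against 0.195% to 0.260% of mRNA reads. The ranges of treated and vehicle libraries overlapped in each of these sets. The next codons were codon 213 (1.36% ± 0.4198 of its footprints, SD, n = 18) and codon 246 (1.23% ± 0.599 of its footprints, SD, n = 18), both CTA.

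MT-ND3 is a small subunit beside MT-ND1 at the joint of the arms (ENST00000361227, chrM:10059-10404, plus strand, 346 nt, 115 codons counted). Ribo-seq gave 5.86, 22.5 and 14.96 RPM in the 3 vehicle libraries after 10 min, 4.05, 30.7 and 17.0 RPM with 0.3 μM and 12.7, 18.7 and 20.1 RPM with 1.5 μM. The 60 min libraries had 24.5, 15.4 and 15.1 RPM with vehicle, 11.4, 26.3 and 12.3 RPM with 0.3 μM and 9.85, 9.58 and 11.7 RPM with 1.5 μM. With 41 to 661 reads in the first study it had the fewest reads of the members. The 10 min groups overlapped, and after 60 min every library with 1.5 μM lay below every vehicle library. Footprints in the second study were 13.03 and 17.2 RPM with vehicle and 7.30 and 14.6 RPM with 1.5 μM, with mRNA of 501 and 474 RPM and 381 and 646 RPM in the same order. Relative to mRNA, footprints were 2.60% and 3.63% with vehicle and 1.92% and 2.27% with 1.5 μM. Its leading codons were codon 100 (5.36% ± 2.88 of its footprints, SD, n = 18), the next codon along, 101 (5.35% ± 3.60), and codon 26 (5.12% ± 3.05), and none led in more than 4 of 22 libraries.

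MT-ND4L is a small membrane subunit encoded just before MT-ND4 on the same RNA (ENST00000361335, chrM:10470-10766, plus strand, 297 nt, 99 codons counted). Footprints of MT-ND4L came to 11.7, 28.2 and 19.8 RPM in the 3 vehicle libraries after 10 min, 8.80, 61.6 and 20.3 RPM with 0.3 μM and 15.7, 25.6 and 26.8 RPM with 1.5 μM. At 60 min the levels were 40.7, 33.4 and 24.0 RPM with vehicle, 16.4, 46.4 and 26.5 RPM with 0.3 μM and 17.7, 27.0 and 23.1 RPM with 1.5 μM. Both sets of groups overlapped. The cultures of the second study had footprints of 19.4 and 23.9 RPM with vehicle and 13.05 and 20.6 RPM with 1.5 μM, with mRNA of 647 and 556 RPM and 581 and 739 RPM in the same order. Footprints relative to mRNA came to 3.00% and 4.29% with vehicle and 2.25% and 2.78% with 1.5 μM. Codon 30 held 10.5% ± 3.30 of the footprints (SD, n = 18; 3.70% to 17.3%), led in 15 of 22 libraries and held 1.07% to 1.47% of the mRNA reads. MT-ND4L shares its last 7 bases with the start of MT-ND4, in another reading frame. Per codon, MT-ND4L had 0.534 to 0.578 times the mRNA reads of MT-ND4 but 1.28 to 1.58 times its footprints in the second study and 1.15 to 2.43 times in the first. In every library the footprint ratio was above 1 and the mRNA ratio below 1, although both reading frames sit on the same RNA.

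MT-ND6 is the only member encoded on the minus strand (ENST00000361681, chrM:14149-14673, minus strand, 525 nt, 175 codons counted). Its footprints stood at 12.3, 25.6 and 26.03 RPM in the 3 vehicle libraries after 10 min, 8.31, 55.3 and 24.8 RPM with 0.3 μM and 14.7, 22.7 and 31.9 RPM with 1.5 μM. After 60 min they stood at 42.6, 23.3 and 19.2 RPM with vehicle, 11.5, 33.9 and 13.3 RPM with 0.3 μM and 11.2, 20.9 and 15.8 RPM with 1.5 μM. The 10 min groups overlapped, and after 60 min so did the groups of 1.5 μM and vehicle. In the second study the footprints were 22.3 and 27.1 RPM with vehicle and 12.9 and 23.8 RPM with 1.5 μM, with mRNA of 1287 and 947 RPM and 1273 and 1539 RPM in the same order. As a share of mRNA, footprints were 1.74% and 2.86% with vehicle and 1.01% and 1.55% with 1.5 μM. Codon 158, a TGA, held 13.4% ± 4.46 of its footprints (SD, n = 18; 7.22% to 19.7%), was among the top 3 codons in 22 of 22 ribo-seq libraries and held 0.503% to 0.742% of the mRNA reads. The labels and the methods text do not state whether alignments were restricted to 1 strand, so reads of MT-ND6 and of RNA antisense to it cannot be told apart. Its mRNA value is uncertain for that reason, and the part of poly(A) selection in it was not tested.

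The comparison of ribo-seq with mRNA-seq in the second study asked how many footprints each member had for its mRNA. The mRNA-seq was poly(A)-selected, and the part of that selection in the mRNA values of the members was not tested. The mRNA value of MT-ND6 is uncertain also because reads of RNA antisense to it cannot be told apart. That the assays share their cultures was left out of the test. With vehicle, all 7 members had fewer footprints per mRNA than the transcripts on which the libraries were scaled. The log2 ratio of ribo-seq to mRNA-seq was -5.97 ± 0.28 (SE) for MT-ND4 (adjusted p = 1.03e-08, edgeR quasi-likelihood test with Benjamini-Hochberg adjustment over all transcripts, as in every test of levels here), -5.81 ± 0.32 for MT-ND1, -5.34 ± 0.26 for MT-ND6 and -5.22 ± 0.32 for MT-ND2. It was -4.86 ± 0.31 for MT-ND3, -4.64 ± 0.20 for MT-ND4L and -4.13 ± 0.21 for MT-ND5 (adjusted p = 1.67e-08). Most transcripts passed this test, 76.6% of 11799 at a false discovery rate of 0.1, so the size of the difference says more than the count. The 7 log2 ratios lay in the lowest 1.91% of all transcripts tested. The other 6 mitochondrially encoded genes, of complexes III and IV and the ATP synthase, were all lower as well, from -5.89 to -3.40. Of 35 nuclear complex I subunits, 18 were higher and 7 lower, with a median of 0.27 (median of all transcripts -0.03). Of 15 complex I assembly factors, 4 were higher and 6 lower, and of 13 factors of mitochondrial mRNA and translation found by name, 7 were higher and 4 lower.

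**Figure D2:**
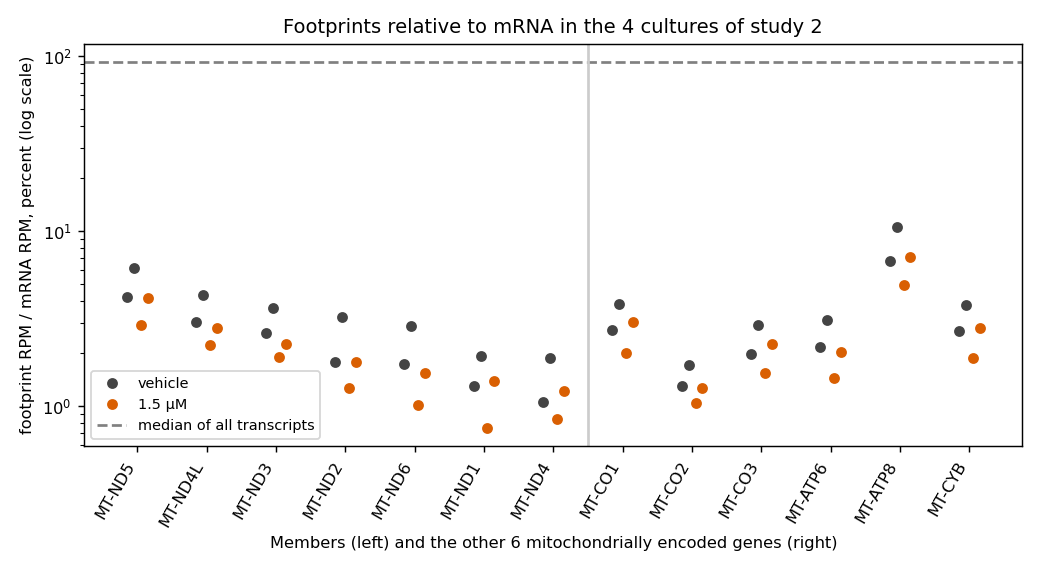
Ratio of footprint RPM to mRNA RPM in percent (log axis) in the 4 cultures of the second study for the 7 members, ordered by the ratio relative to all 13 genes, and for the other 6 mitochondrially encoded genes. The dashed line is the mean over cultures of the median of 10893 transcripts that had 10 or more reads in each library, and every mitochondrial point lies below it.

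The members differed among themselves in this ratio. To set aside what all mitochondrial transcripts of a culture share, each member's share of the reads of the 13 genes in ribo-seq was divided by its share in mRNA-seq, so that 100% marks the average of the 13. MT-ND5 stood at 177% ± 8.48 (SD, n = 4 cultures), MT-ND4L at 127% ± 9.05, MT-ND3 at 107% ± 10.2, MT-ND2 at 80.8% ± 11.2, MT-ND6 at 71.3% ± 12.2, MT-ND1 at 53.97% ± 6.56 and MT-ND4 at 50.5% ± 4.16. Between neighbours in this order, the cultures of MT-ND5 and MT-ND4L did not overlap, nor did those of MT-ND6 and MT-ND1, while the others did. Every step of the order held within all 4 cultures except that from MT-ND1 to MT-ND4, which held in 3. A two-sided exact permutation test over 4 paired cultures cannot go below 0.125, the value it gave for each of the other 5 steps, and it gave 0.375 for the last. Among the other 6 genes the value ran from 55.4% ± 4.92 for MT-CO2 to 299% ± 13.5 for MT-ATP8. Coverage in mRNA-seq was uneven, since MT-ND4L had 0.534 to 0.578 times the mRNA reads per codon of MT-ND4 on the same RNA. The part of uneven mRNA coverage in the order of the members was not tested. The value of MT-ND6 also carries the uncertainty of its mRNA described above. As a share of mitochondrial footprints, MT-ND5 took 10.5% ± 0.830 in the second study and 9.81% ± 1.96 in the first (SD, n = 18), against 5.94% ± 0.622 of mitochondrial mRNA reads. MT-ND4 took 3.797% ± 0.119 of footprints in the second study, against 7.55% ± 0.551 of mRNA reads.

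Per kilobase, the order of the members in mRNA-seq was not their order in ribo-seq. MT-ND4 (3824 ± 509 RPM per kb, SD, n = 4) and MT-ND1 (3408 ± 407) had the most mRNA, and their libraries overlapped, but MT-ND4 was the higher in 4 of 4. MT-ND6 (2403 ± 462), MT-ND5 (2284 ± 309.8), MT-ND4L (2124 ± 276) and MT-ND2 (1838 ± 373) followed with overlapping libraries, and MT-ND3 (1451 ± 319) had the lowest mean, with libraries that overlapped those of MT-ND2 although it was the lower in 4 of 4. Within libraries, each step of this order held in 4 of 4 except that from MT-ND6 to MT-ND5, which held in 3 (exact paired permutation tests, p = 0.125, the smallest that 4 pairs allow, and 0.375). The place of MT-ND6 is uncertain, because its reads and those of RNA antisense to it cannot be told apart. In footprints, MT-ND5 came first with 96.9 ± 21.3 RPM per kb and MT-ND4L second with 64.7 ± 15.2, with libraries that overlapped although MT-ND5 was the higher in 4 of 4. The remaining 5 lay between 36.0 ± 11.4 for MT-ND2 and 46.8 ± 13.3 for MT-ND4, with libraries that overlapped. Of the steps among them, MT-ND4 lay above MT-ND1 in 2 of 4 libraries and MT-ND1 above MT-ND6 in 3, while MT-ND6 lay above MT-ND3 and MT-ND3 above MT-ND2 in 4. In the 18 libraries of the first study MT-ND5 (107 ± 48.3) and MT-ND4L (88.6 ± 43.3) were again the highest.

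Codons were not visited evenly. The 10% of codons with most footprints of a member held 43.2% (MT-ND5) to 60.2% (MT-ND6) of its footprints in the first study, summed over libraries, while the 10% with most mRNA reads held 17.4% to 21.3% of those. The medians over 7665 transcripts with at least 1000 reads in each assay were 37.96% and 28.5%. Those transcripts were not matched to the members in depth or length, on which such shares depend. Footprint positions recurred between the studies. Across codons, Pearson's r between the 2 studies' summed footprints ran from 0.68 for MT-ND1 (311 codons) to 0.89 for MT-ND6 (168 codons), against 0.04 to 0.31 between the footprints of the first study and mRNA reads. The medians over the same 7665 transcripts were 0.52 and 0.10. These are descriptions across codons, which are not independent replicates, and footprints and mRNA reads of a codon share its base composition. Within the first study, libraries with 1.5 μM and with vehicle gave r of 0.77 (MT-ND5) to 0.95 (MT-ND6).

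**Figure D3:**
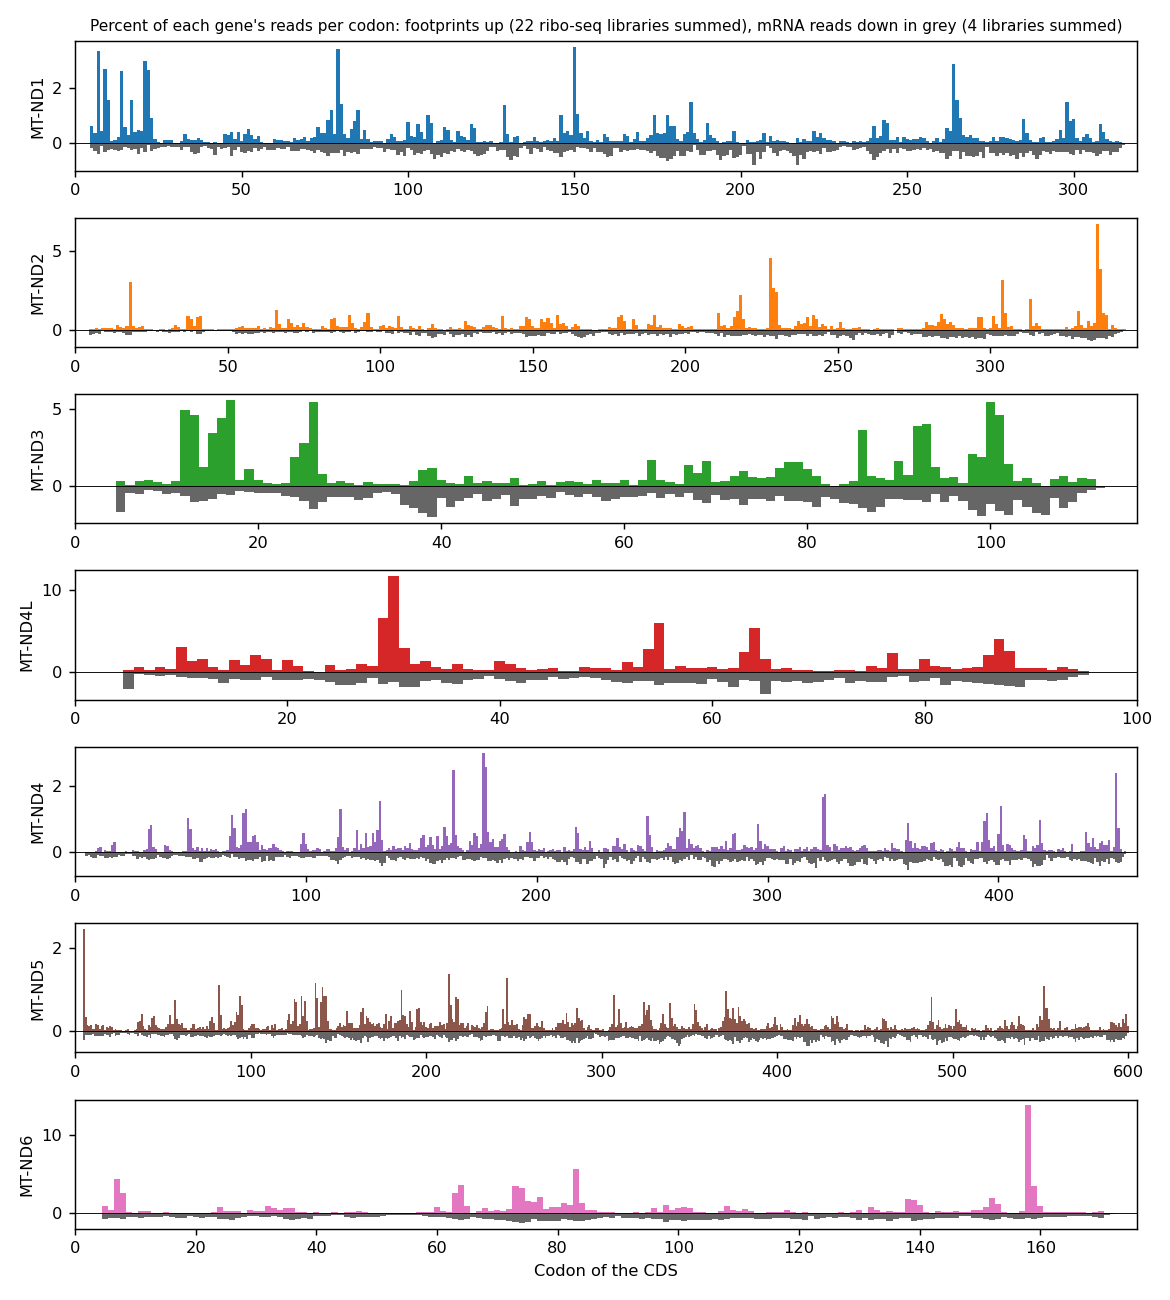
Percent of each member's reads at each codon, with footprints of all 22 ribo-seq libraries summed pointing up and mRNA reads of the 4 mRNA-seq libraries summed pointing down in grey; each panel has its own scale. Footprints stand in narrow peaks, such as codon 158 of MT-ND6 and codon 30 of MT-ND4L, which the mRNA reads lack.

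Many of the peaks shared a codon. Of the 21 codons listed for the 7 members, 3 each, 12 had CTA in the P-site. This codon was singled out after its density was seen, so no test is given. Among 34 kinds of codon with at least 20 occurrences in the members, leaving out 15 codons at either end, CTA had the highest mean footprint density. With the mean of each coding sequence set to 1, the 145 CTA codons among 1907 stood at 3.05 in the first study (median 1.90) and 2.59 in the second, and at 1.01 in mRNA-seq. Next came TTA, the leucine codon of another tRNA, at 1.95, and the serine codon TCA at 1.80. The remaining leucine codons read by the CTA tRNA were lower, CTT at 1.56, CTC at 1.46 and CTG at 1.25.

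The density at CTA was high in each library and in each member that has the codon. Over single libraries it ran from 1.75 to 3.54 in the 18 of the first study, from 2.41 to 2.74 in the 4 ribo-seq libraries of the second, and from 0.996 to 1.03 in the 4 mRNA-seq libraries. By gene it was 4.01 in MT-ND2 (23 codons), 3.32 in MT-ND3 (9), 3.16 in MT-ND4 (38), 2.77 in MT-ND1 (25), 2.61 in MT-ND4L (10) and 2.60 in MT-ND5 (40), while MT-ND6 had none outside its ends. In the other 6 mitochondrially encoded genes it ran from 2.53 (MT-CO2) to 5.66 (MT-ATP8, 3 codons). In 8333 nuclear transcripts of the same libraries, read by cytosolic ribosomes, 33440 CTA codons stood at 0.901. The elevation was centred on the P-site as the authors assigned it, with 1.70 when CTA was 1 codon to the 5′ side and 1.56 when it was 1 codon to the 3′ side, and 0.970 at 2 codons to the 3′ side. The offset of 14 nt was set for cytosolic footprints, and whether it holds for mitochondrial ribosomes was not tested.

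**Figure D4:**
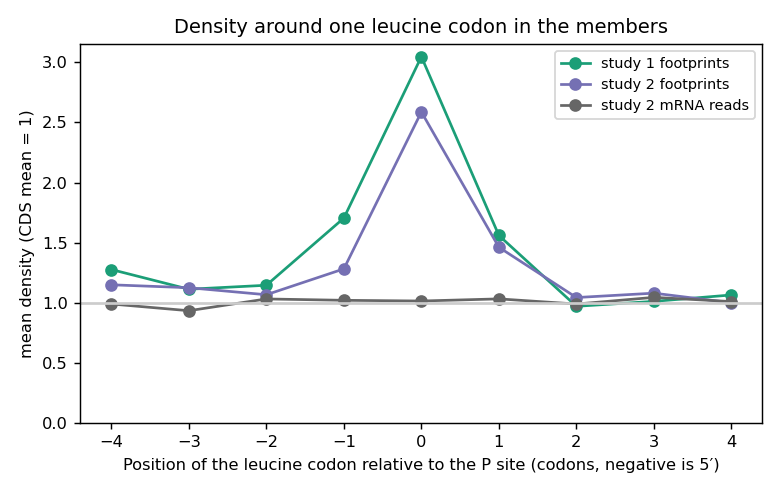
Mean density of reads in the members (vertical axis, coding-sequence mean set to 1) against the position of a CTA codon relative to the P-site, from 4 codons to the 5′ side (negative) to 4 codons to the 3′ side, with a line for each of first-study footprints, second-study footprints and mRNA reads. Footprints of both studies peak at 0, at 3.05 and 2.59, and mRNA reads stay near 1.

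The center of density, the mean codon number of a transcript's reads relative to its length, placed footprints nearer the start codon than mRNA reads for 6 of the 7 members. For MT-ND5 it lay at 43.9% ± 2.90 of the coding sequence in ribo-seq and 54.1% ± 0.664 in mRNA-seq (SD, n = 4 libraries each; p = 0.0286, two-sided exact permutation test), and for MT-ND1 at 43.8% ± 1.32 of the coding sequence in ribo-seq and 53.8% ± 0.687 in mRNA-seq. The libraries of the 2 assays did not overlap for these, nor for MT-ND3, MT-ND4, MT-ND2 and MT-ND4L, whose differences were -6.64, -6.36, -5.01 and -4.65 percentage points, each at p = 0.0286 (exact permutation test), the smallest that 4 against 4 libraries allow. The assays share their 4 cultures, which that test leaves out. Within cultures, footprints of these 6 lay nearer the start codon in 4 of 4, and an exact paired permutation test gave p = 0.125 for each, the smallest that 4 pairs allow. MT-ND6 overlapped (53.8% ± 3.78 of the coding sequence in ribo-seq and 51.7% ± 0.931 in mRNA-seq, p = 0.314, exact permutation test), and lay nearer the start codon in 1 of 4 cultures. Of the other 6 mitochondrially encoded genes, footprints also lay nearer the start codon for MT-CO1 (-8.13), MT-CO3 (-5.83), MT-ATP6 (-2.07) and MT-CO2 (-1.69). They lay nearer the stop codon for MT-CYB (3.12) and MT-ATP8 (21.5), and the assays did not overlap for any of these 6. Over all 10373 transcripts that had 20 or more reads in each library, 32.3% did not overlap, in either direction, and the median difference was 1.08 percentage points, toward the stop codon.

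**Figure D5:**
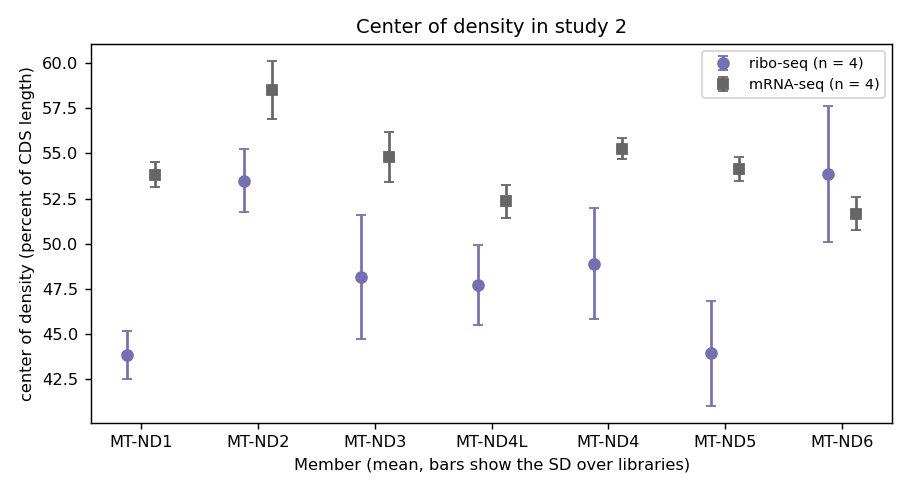
Center of density of each member in percent of its coding sequence, for the second study, as the mean over 4 ribo-seq and 4 mRNA-seq libraries with bars of 1 SD. Ribo-seq lies below mRNA-seq for 6 members, and the bars overlap for MT-ND6.

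The compound did not separate the groups by this measure. For 1.5 μM against vehicle, the groups did not overlap for 0 of the 7 members after 10 min (27.4% of 10036 transcripts did not overlap) and for 0 of 7 after 60 min (10.7% of 9792). The smallest p of the members was 0.2 after 10 min, by exact permutation tests that cannot go below 0.1 with 3 libraries against 3. The largest differences after 10 min were 5.60 percentage points for MT-ND4L, 5.38 for MT-ND3 and -5.04 for MT-ND5, and after 60 min no member differed by as much.

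Before the compound is considered, the spread between replicates has to be seen, since most mitochondrial genes moved together from library to library. MT-ATP8 followed the mean log2 level of the members least closely (Pearson's r = 0.77). The other mitochondrial genes ran from 0.92 (MT-ND6) to 0.99 (MT-CO1). Each member is itself part of that mean, which raises its r. The genes that are not members, apart from MT-ATP8, ran from 0.95 (MT-CO2) to 0.99 (MT-CO1). The summed RPM of the members was 155, 903 and 378 in the 3 replicates of 0.3 μM after 10 min and 201, 596 and 371 in those of vehicle. Over the 18 libraries the highest was 5.82 times the lowest, while the summed nuclear complex I subunits varied by 1.13 times. The log2 sum of the members followed that of the other 6 mitochondrially encoded genes with Pearson's r = 0.99 (p = 2e-05, two-sided permutation test, the smallest that 100000 permutations can give) and Spearman's rho = 0.99 (p = 2e-05, permutation test, again the smallest). Without the 2 libraries farthest from the median r was 0.98, and for deviations from the group means it was 0.99. With the nuclear complex I subunits r was 0.36 (p = 0.140, permutation test) and rho 0.40 (p = 0.104, permutation test), with r = 0.45 without the 2 farthest libraries and 0.57 for deviations from the group means. These were the 2 relations computed (Benjamini-Hochberg adjusted p = 4e-05 and 0.140).

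Outside the mitochondrial genome, the 5 transcripts whose log2 level followed the mean of the members most closely over the 18 libraries, among 9001 with at least 50 reads on average, were ABRACL (r = 0.90), the read-through transcript RPL36A-HNRNPH2 (0.90), PTMA (0.89), ANAPC13 (0.89) and NEDD8 (0.89). They are the extremes of a ranking, and reads of RPL36A-HNRNPH2 cannot be told from those of the genes it joins. Their log2 levels ranged by 0.76 to 1.24 over the libraries, against 2.33 (MT-ND5) to 3.21 (MT-ND2) for the members.

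After 60 min with 1.5 μM, the footprints of all 7 members were lower than with vehicle in every replicate pair, yet none passed the test by edgeR or DESeq2. The log2 fold changes were -0.83 ± 0.29 (SE) for MT-ND6, -0.80 ± 0.21 for MT-ND3, -0.74 ± 0.23 for MT-ND4, -0.66 ± 0.22 for MT-ND5, -0.65 ± 0.26 for MT-ND2, -0.58 ± 0.24 for MT-ND1 and -0.54 ± 0.21 for MT-ND4L, each with an adjusted p of 1.00 and an unadjusted p from 0.00231 (MT-ND3) to 0.0302 (MT-ND1), by edgeR. Of 11021 transcripts, 242 had an unadjusted p under 0.05 and 0.0726% were called. The RPM of 4 members did not overlap between the groups, lower with 1.5 μM, as was the case for 2.84% of 9792 transcripts that had 20 or more reads in each library, and the 4 share the spread of the mitochondrial genes described above. The median log2 ratio of the members within a replicate number was -1.31, -0.37 and -0.05. Vehicle replicate 1 had the most mitochondrial footprints of its group, and without it the median log2 fold change was -0.39 in place of -0.66. The other 6 mitochondrially encoded genes were lower too (median -0.73, 0 called), and the nuclear complex I subunits had a median of 0.05 with 0 of 34 tested called. With the replicate number as a block, 1 member was called, MT-ND3, at a log2 of -0.81 (adjusted p = 0.0676, edgeR), with 0.463% of transcripts called.

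The second study repeated this contrast in 2 replicates. The RPM of the groups overlapped for all 7 members, while 29.9% of 10421 transcripts did not overlap, in either direction. The members had log2 fold changes of -0.45 ± 0.24 for MT-ND2, -0.44 ± 0.27 for MT-ND3, -0.42 ± 0.23 for MT-ND6, -0.40 ± 0.27 for MT-ND1, -0.35 ± 0.20 for MT-ND4L, -0.25 ± 0.22 for MT-ND4 and -0.24 ± 0.17 for MT-ND5, and 0 of 7 passed the test, nor did any by DESeq2 or at an unadjusted p under 0.05 (adjusted p = 0.999 for each, edgeR; 0.115% of 11263 transcripts were called). With the replicate number as a block the median of the members was -0.47, with 1.15% of transcripts called. MT-ND1, MT-ND2, MT-ND4, MT-ND5 and MT-ND6 were then called. Whether the 2 numbers pair the libraries was not settled. Without the block, single libraries moved the fold changes. Without 1.5 μM replicate 5 all 7 members were called lower (median -0.94), with 1.14% of 11346 transcripts called. Without 1.5 μM replicate 4 the values of MT-ND1, MT-ND4 and MT-ND5 were above 0 and 0 members were called (median -0.03), and without vehicle replicate 5 the median was -0.22. In mRNA-seq the median log2 fold change was 0.14 (range 0.06 to 0.32), with 0 of 7 called and 0% of 11812 transcripts called by edgeR (228 at an unadjusted p under 0.05, MT-ND5 among them, and 1 by DESeq2). The mRNA RPM of MT-ND5 did not overlap, higher with 1.5 μM, as was the case for 1924 of 11290 transcripts. The replicate pairs differed in sign, with medians of -0.15 and 0.46. The median log2 fold change turned to -0.06 without 1.5 μM replicate 5, and it was 0.36 without replicate 4.

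The change in translational efficiency, footprints relative to mRNA with 1.5 μM against vehicle, was tested as an assay-by-treatment term in 1 fit to all 8 libraries. That the assays share their cultures was left out of this fit. The change was -0.74 ± 0.33 on the log2 scale (SE) for MT-ND6, -0.59 ± 0.39 for MT-ND2, -0.51 ± 0.38 for MT-ND1, -0.51 ± 0.26 for MT-ND5, -0.50 ± 0.42 for MT-ND3, -0.47 ± 0.27 for MT-ND4L and -0.42 ± 0.33 for MT-ND4. None passed by edgeR or DESeq2, and 1 had an unadjusted p under 0.05, as did 357 of 11799 transcripts (adjusted p = 1.00 for each, edgeR; 0.0339% of transcripts were called). Single libraries with 1.5 μM moved these values, and the median of the members, -0.51, was -0.18 without ribo-seq replicate 4, -1.12 without ribo-seq replicate 5 and -0.32 without mRNA-seq replicate 5, with 0 members called in each. The nuclear complex I subunits had a median of 0.09, with 0 of 35 called, and the other mitochondrially encoded genes one of -0.39, with 0 of 6.

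None of the 7 members passed the test in the remaining comparisons of the first study. With 1.5 μM for 10 min their median log2 fold change was 0.18 (-0.09 to 0.34), where 0.851% of 11045 transcripts were called. The median was -0.10 without 1.5 μM replicate 3, -0.11 without vehicle replicate 1 and 0.54 without vehicle replicate 2, so its sign rested on single libraries, and 0.04 without the first and last 15 codons. Among the nuclear complex I subunits 2 of 34 were called higher there, and among the factors of mitochondrial mRNA and translation 1 of 13 was called lower, TFAM, which packages mitochondrial DNA (log2 -0.56, adjusted p = 0.0980, edgeR). With 0.3 μM the median was 0.37 (0.25 to 0.71) after 10 min and -0.12 (-0.50 to 0.12) after 60 min. The replicate pairs differed in sign at both times, with medians of -0.53, 0.54 and 0.04 after 10 min and -1.31, 0.71 and 0.07 after 60 min. In both, 0% of transcripts were called by edgeR (104 of 11131 and 97 of 11141 at an unadjusted p under 0.05, and 0 in either by DESeq2). Without 0.3 μM replicate 2, the library with the most mitochondrial footprints, the 10 min median was -0.49. It was -0.03 without vehicle replicate 1, 0.78 without 0.3 μM replicate 1 and 0.81 without vehicle replicate 2, and with the replicate number as a block 0.16. The 60 min median was 0.12 without 0.3 μM replicate 1, 0.13 without vehicle replicate 1 and -0.61 without 0.3 μM replicate 2. Vehicle after 60 min against vehicle after 10 min gave a median of 0.50, with 0% of 11098 transcripts called (769 at an unadjusted p under 0.05, and 43 by DESeq2, which gave the members no adjusted p); it was 0.16 without vehicle 60 min replicate 1, 0.19 without vehicle 10 min replicate 1 and 0.93 without vehicle 10 min replicate 2. The difference between the effects of 1.5 μM at 60 and at 10 min had a median of -0.82 (-1.13 to -0.65) and 0 members called, with 0% of 11167 transcripts called (506 at an unadjusted p under 0.05, 2 of them members, and 1 by DESeq2). Without vehicle 10 min replicate 1 that median was -0.52. The comparisons at 1.5 and 0.3 μM share their vehicle libraries.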

How the data were processed

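Huh7 libraries (22 ribo-seq, 4 mRNA-seq) were grouped by assay, dose, time and study from the labels. The deposited tables hold raw read counts at each codon, without normalization; all 26 were used. The authors stripped adapters, removed rRNA reads with Bowtie, aligned the rest with Bowtie (1.1.2 per the submitters' processing notes) to the most abundant isoform of each expressed gene (kallisto 0.42.5, GRCh38), kept reads with at most 5 best sites and placed the P-site 14 nt from the 5′ end.

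Transcripts were named from GENCODE release 44 (11270 of 12325). The 7 members and the gene lists were chosen with earlier results of these data known. Named were all members, for each the 3 codons with the highest mean share of footprints over the first study, and the 5 non-mitochondrial transcripts most correlated with them. Counts summed per coding sequence were tested with edgeR 4.0.16 in R 4.3.3 (filterByExpr, TMM, glmQLFit, glmQLFTest, FDR 0.1), fitting only the groups compared, or all 8 libraries of the second study for efficiency. Positions used Python 3.11.15 with numpy 2.4.6 and scipy 1.17.1, a minimum of 20 reads and exact permutation tests. Scripts were tested on simulated data. Sequences come from hg38 at GENCODE coordinates. p-values measure the spread between replicates of a single cell line.

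Alternatives were DESeq2 1.42.0, its size factors, no filter, FDR 0.05, other codons, nuclear scaling, all 18 libraries in a fit, leaving out each library, and the replicate number as a block. Same-numbered libraries deviated together (r over 10168 transcripts) for 1.5 μM and vehicle after 60 min (0.514, 0.384 and 0.508) and for 0.3 μM and vehicle at 60 min (0.429, 0.429 and 0.539). At 10 min the values were more mixed, with 0.191, 0.145 and 0.514 for 0.3 μM and 0.182, 0.225 and 0.0678 for 1.5 μM. Deviations were taken from the group mean, so where same-numbered libraries deviate together, differently numbered ones deviate apart on average. At 60 min in the first study the libraries thus varied together by number. What the numbers stand for is not labelled. Differently numbered libraries were not compared directly, and whether the numbers pair the libraries at 10 min and in the second study was not settled. In the second study, per the paper, ribo-seq and mRNA-seq of a number and treatment share a sample.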

Additional observations from a re-analysis of the deposited data

How the results depend on the processing

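All 7 members stayed lower in ribo-seq than in mRNA-seq under every alternative run. The replicate block called 1 member for 1.5 μM against vehicle after 60 min (51 transcripts in place of 8) and changed no other count of members in the first study. For footprints of study 2 (r = 0.253 between same-numbered deviations), the block called 5 members, MT-ND1, MT-ND2, MT-ND4, MT-ND5 and MT-ND6 (129 transcripts in place of 13, 1.15%). For 1.5 μM after 10 min, the block called 1196 transcripts in place of 94 and 0 members. Leaving out each library gave 0 to 7 members called in the second study's footprints, where the lone sample of an arm is assumed to vary like the other arm. The log2 fold changes there ran from -1.12 to 0.074 for MT-ND1, -0.72 to 0.10 for MT-ND4 and -0.62 to 0.058 for MT-ND5, positive without 1.5 μM replicate 4 and for MT-ND4 also without vehicle replicate 5. The changes in efficiency ran from -1.24 to -0.037 for MT-ND1 and -1.12 to -0.06 for MT-ND3. Members whose centers of density did not overlap numbered 0 to 3 for 1.5 μM after 10 min, 0 to 1 after 60 min and 6 to 7 between the assays, with fewer libraries to overlap. Members below all vehicle libraries after 60 min numbered 4 to 7, also with fewer libraries to overlap. That alternative was chosen after seeing the data, as was the comparison of the assays within cultures. The shares of all transcripts given above are for the full sets of libraries, so nothing is read from these leave-one-out counts. The causes were not tested. Under settings that kept every library, 86 of 88 counts of members were equal or within a factor of 1.5. Of the fold changes, 211 of 217 kept their direction and side of the threshold. For 47 of 47 medians the shift stayed within 1 SD of the members' summed log2 RPM within groups. DESeq2 called 516 transcripts after 10 min with 1.5 μM, 16 after 60 min, 11 for efficiency and 43 for vehicle at 60 against 10 min (edgeR 94, 8, 4 and 0); it gave no adjusted p for the members in the last. Leaving out the end codons gave 232 and fitting all 18 libraries 30 after 10 min. MT-ND3 had the fewest reads of the members, 41 to 661 in the first study.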

Other observations

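MT-ATP8, whose reading frame overlaps the start of MT-ATP6 on the same RNA, held 37.2% ± 7.91 of its footprints at codon 55 and 24.9% ± 7.19 at codon 56 (SD, n = 18 libraries), against 2.34% to 3.42% of mRNA reads at codon 55. Codon 55 lies at chrM:8528-8530, and the start codon of MT-ATP6 at chrM:8527-8529 in another frame. Footprints of both reading frames are counted on MT-ATP8 there, and its ratio of footprints to mRNA was the highest of the 13 genes. The overlap of MT-ND4L with the start codon of MT-ND4 falls in the last 3 codons of MT-ND4L and the first 4 of MT-ND4, which hold no reads.

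Fragments that begin at the first bases of the reference transcript (codon 5) took 1.81% to 2.06% of mRNA reads of MT-CO3 and 1.56% to 2.43% of those of MT-ND4L, against 0.394% and 1.09% if reads were spread evenly over the codons. The median share lay above the even one in 10 of the 13 mitochondrially encoded genes and below it in 3, MT-ND1, MT-ND4 and MT-ATP6. The even share counts all codons alike, but codon 5 can take fewer fragment starts than an inner codon. It is therefore too high for codon 5, and whether the 3 genes below it had few such fragments cannot be read from it. For MT-ND5 the share of mRNA reads at codon 5 was 0.195% to 0.260% against an even 0.168%, while footprints had a median of 0.705% in the first study (0.156% to 20.7%) and 4.15% in the second.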
